A study of Saccharomyces cerevisiae with 24 samples.

Results

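The nuclear genes of the yeast respiratory chain and ATP synthase were followed across 4 Saccharomyces cerevisiae strains, without caffeine and after 4 h in 20 mM caffeine. The genes were chosen by name, as members of these complexes, and are 38 of the 6713 transcripts quantified. They encode 4 subunits of complex II, 8 of complex III together with its chaperone BCS1, 9 of complex IV, 13 of ATP synthase and the 3 NADH dehydrogenases NDI1, NDE1 and NDE2. RNA was sequenced from the laboratory strain S288C, which the labels call BY4742, and from YPS606 (YPS), Y55 and UWOPS87-2421 (UWOP). Every strain had 3 libraries from regular synthetic defined medium and 3 from medium with caffeine, all collected at an OD of 0.4. Each library has a number from 25 to 48 in the labels, and single libraries are named by strain and number here. The labels do not say whether the 3 libraries of a group came from separate cultures, so that p-values measure the spread between libraries, part of which may be technical.

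In yeast, electrons enter the respiratory chain through succinate dehydrogenase (complex II) and through single-subunit NADH dehydrogenases, since yeast lacks the large complex I of animals. Ndi1 oxidizes NADH in the matrix, and Nde1 and Nde2 oxidize cytosolic NADH at the outer face of the inner membrane. Complex III passes the electrons from ubiquinone to cytochrome c, complex IV passes them on to oxygen, and ATP synthase uses the resulting proton gradient. On glucose yeast mainly ferments, and the genes of these complexes are held low by glucose repression. The Hap2/3/4/5 complex, whose Hap4 subunit is itself repressed by glucose, activates many of them from CCAAT boxes. Hap1 activates others when heme is present, and the S288C lineage is known to carry a transposon insertion in HAP1. Rox1 represses hypoxic genes when oxygen is present.

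The letters of the Hap2/3/4/5 box were common upstream of these genes. In the 300 bases before the annotated start of each reading frame, taken from the RefSeq copy of the S288C genome (R64), CCAAT on either strand was found for 34 of the 38 genes (89.5%), against 2509 of 6001 nuclear protein-coding genes (41.8%). COR1, BCS1, COX4 and NDE2 had no match in this window. The Rox1 pattern ATTGTT matched 17 of the 38 genes (44.7%, against 34.1% of all). CACGTG, the Cbf1 box, matched 6 of them (15.8%, against 3.57%), 4 of which are complex III genes. The Hap1 consensus, a pair of CGG triplets in the same orientation with TA between them, matched QCR6 alone among the 38, at 2 places, against 8 of all 6001 genes (0.133%). Both strands were searched for each pattern, and matches of different patterns may overlap. The cytochrome genes CYC1, CYT1 and CYC7, followed below, had no match to any of these patterns. Sites outside the window or with other letters were not searched, so that no match does not show that a site is absent. Windows of 60 bases are shown for genes that the results below turn on, on the coding strand, with every match to the named pattern in capitals (ATTGG is CCAAT on the other strand).
RIP1, CCAAT, chrV:106985-107044, plus strand: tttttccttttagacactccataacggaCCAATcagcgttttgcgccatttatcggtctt
COX8, CCAAT, chrXII:910135-910194, minus strand: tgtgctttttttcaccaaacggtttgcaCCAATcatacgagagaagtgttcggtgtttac
COX12, CCAAT, chrXII:225346-225405, minus strand: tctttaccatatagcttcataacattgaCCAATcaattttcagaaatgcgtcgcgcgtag
SDH2, CCAAT, chrXII:54060-54119, minus strand: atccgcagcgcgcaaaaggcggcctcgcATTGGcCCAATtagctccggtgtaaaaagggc
ATP7, CCAAT, chrXI:408178-408237, minus strand: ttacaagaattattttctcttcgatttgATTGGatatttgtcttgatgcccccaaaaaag
NDE1, CCAAT, chrXIII:556705-556764, minus strand: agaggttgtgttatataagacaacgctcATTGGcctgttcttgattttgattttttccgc
COX5A, CCAAT, chrXIV:531527-531586, plus strand: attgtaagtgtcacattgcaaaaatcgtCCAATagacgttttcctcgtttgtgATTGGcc
COX5B, ATTGTT, chrIX:154971-155030, plus strand: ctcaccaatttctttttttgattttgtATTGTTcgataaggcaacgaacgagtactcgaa
QCR6, Hap1 consensus, chrVI:224959-225018, minus strand: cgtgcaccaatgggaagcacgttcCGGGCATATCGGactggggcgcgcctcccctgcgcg
CCAAT stood upstream of genes that were higher in the other strains than in S288C (RIP1, COX8, COX12, NDE1) and of genes that were lower in some of them (SDH2, ATP7), as described below. A match is a string of letters in the S288C sequence, and binding and the sequences of the other strains were not analysed here.

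**Figure D1:**
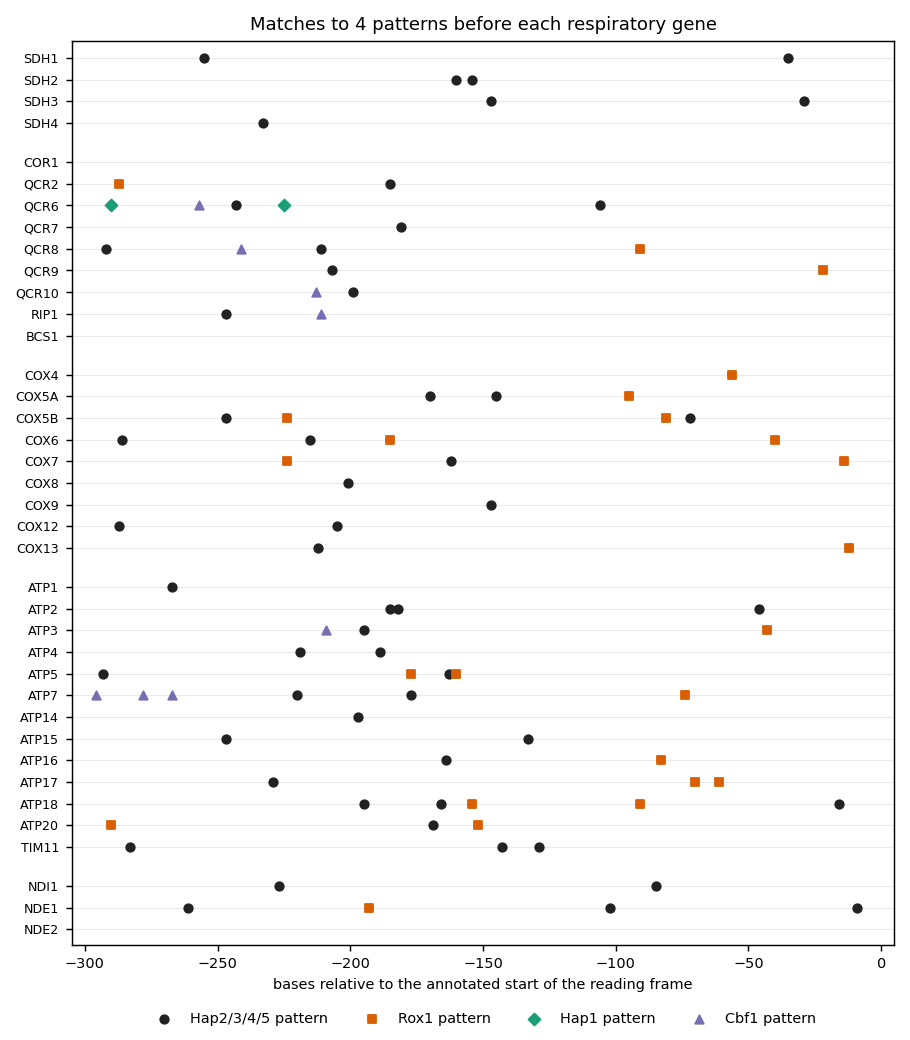
Matches to 4 short patterns in the 300 bases before the annotated start of each of the 38 genes, in bases relative to that start, with 1 symbol per match and factor. The Hap2/3/4/5 pattern occurs for 34 genes, and the Hap1 pattern occurs for QCR6 alone.

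Totals ranged from 8714049 to 29524968 estimated counts per library, and the 38 genes together took between 0.329% and 0.62% of them. Levels are given as CPM, the count of a transcript relative to the library size after TMM scaling. All 38 genes passed the filter on low counts, as did 6400 transcripts in all. Counts were whole numbers in every library for 37 of the genes, whereas those of ATP1 were not whole in 22 of 24 libraries, where reads were divided between transcripts, so ATP1 is uncertain. All libraries had high levels of alpha-cell markers (summed CPM from 1017 to 3968) and low levels of a-cell markers (from 14.6 to 113.9). LEU2, LYS2 and URA3, which BY4742 lacks, were at most 0.181 CPM in the S288C libraries, although HIS3, of which it carries a partial deletion, was at 87.9 to 190.2 CPM. URA3 was at 484 to 2615 CPM in YPS, but it differed between libraries of 1 labelled strain in Y55 and UWOP. It had 41 and 10 counts in Y55 27 and Y55 31 and 270 to 2341 in the other Y55 libraries, and 1 count each in UWOP 28 and UWOP 32 and 885 to 2114 in the other UWOP libraries. Whether this bears on the 38 genes was not tested. Y55 and UWOP differed in few transcripts. Only 4 transcripts, all from the 2-micron plasmid, were called between them, both without caffeine and in caffeine, with none of the 38 genes among them. Against S288C without caffeine, 2172 transcripts were called in Y55 and 2343 in UWOP. Between Y55 and UWOP, 245 of 6400 transcripts without caffeine and 124 in caffeine had an unadjusted p under 0.05 in edgeR. Y55 and UWOP are each given as labelled, and like values in them are not read as independent support.

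YPS 42 and Y55 35 stood apart from the other libraries without caffeine. HXK1, a glucose-repressed hexokinase, was at 2729 and 1599 CPM in them and between 105.2 and 382 CPM in the other 10 libraries. HXK1 counts were not whole in 23 of 24 libraries, where reads were divided between transcripts, so its level is uncertain. Of the 38 genes, 26 were highest of the 3 YPS libraries in YPS 42, and 32 were highest of the 3 Y55 libraries in Y55 35. Results that rest on them are also given without both libraries where that changed a call or moved a called value by over 1.5 times, an alternative chosen after the data were seen. Rank counts of this size were not limited to YPS 42 and Y55 35. S288C 25 was lowest of its group for 31 of the 38 genes, and Y55 43 was lowest for 28. In caffeine UWOP 40 was highest of its group for 25. Y55 values without Y55 35 rest in part on Y55 43, which had the lowest total of all libraries (8714049).

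Without caffeine, RIP1 and BCS1 of complex III, COX12 of complex IV and the external dehydrogenase NDE1 were higher in all other strains than in S288C. No complex II gene was called higher, and ATP synthase genes were called higher in YPS, with 0 called higher in Y55 and UWOP. In YPS, 23 of the 38 genes were called higher than in S288C and 1 was called lower (adjusted p under 0.05 in edgeR), against 21% and 17.1% of all genes tested. In Y55 the counts were 12 higher and 7 lower, against 20% and 13.9% of all genes. In UWOP they were 9 higher and 10 lower, against 20.8% and 15.8%. The median log2 fold change of the 38 genes was 0.48 for YPS, 0.014 for Y55 and -0.069 for UWOP, where the median of all genes was 0.039, 0.037 and 0.031. QCR6, QCR7, QCR9, RIP1, BCS1, COX8, COX12, COX13 and NDE1 were called higher in all 3 strains, and COX5B was called lower in all 3. The 3 comparisons share the S288C libraries. The share of all genes called in all 3, without or in caffeine, was not computed. Groups that did not overlap with S288C were common, at 51%, 45.7% and 64.4% of all genes tested in YPS, Y55 and UWOP without caffeine and at 55.4%, 59.6% and 60.6% in caffeine. Without YPS 42 and Y55 35 the counts were 21 higher and 5 lower in YPS and 7 higher and 13 lower in Y55. The Y55 counts then rest in part on Y55 43, as described above. Apart from complex II and NDE2, described with those genes, the calls of ATP3 and ATP20 were then lost in YPS and ATP7 was called lower (-0.23), and in Y55 those of QCR6, QCR7, QCR10, COX7 and NDI1 were lost and ATP1, ATP2 and ATP5 were called lower (-0.42, -0.62 and -0.51).

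**Figure D2:**
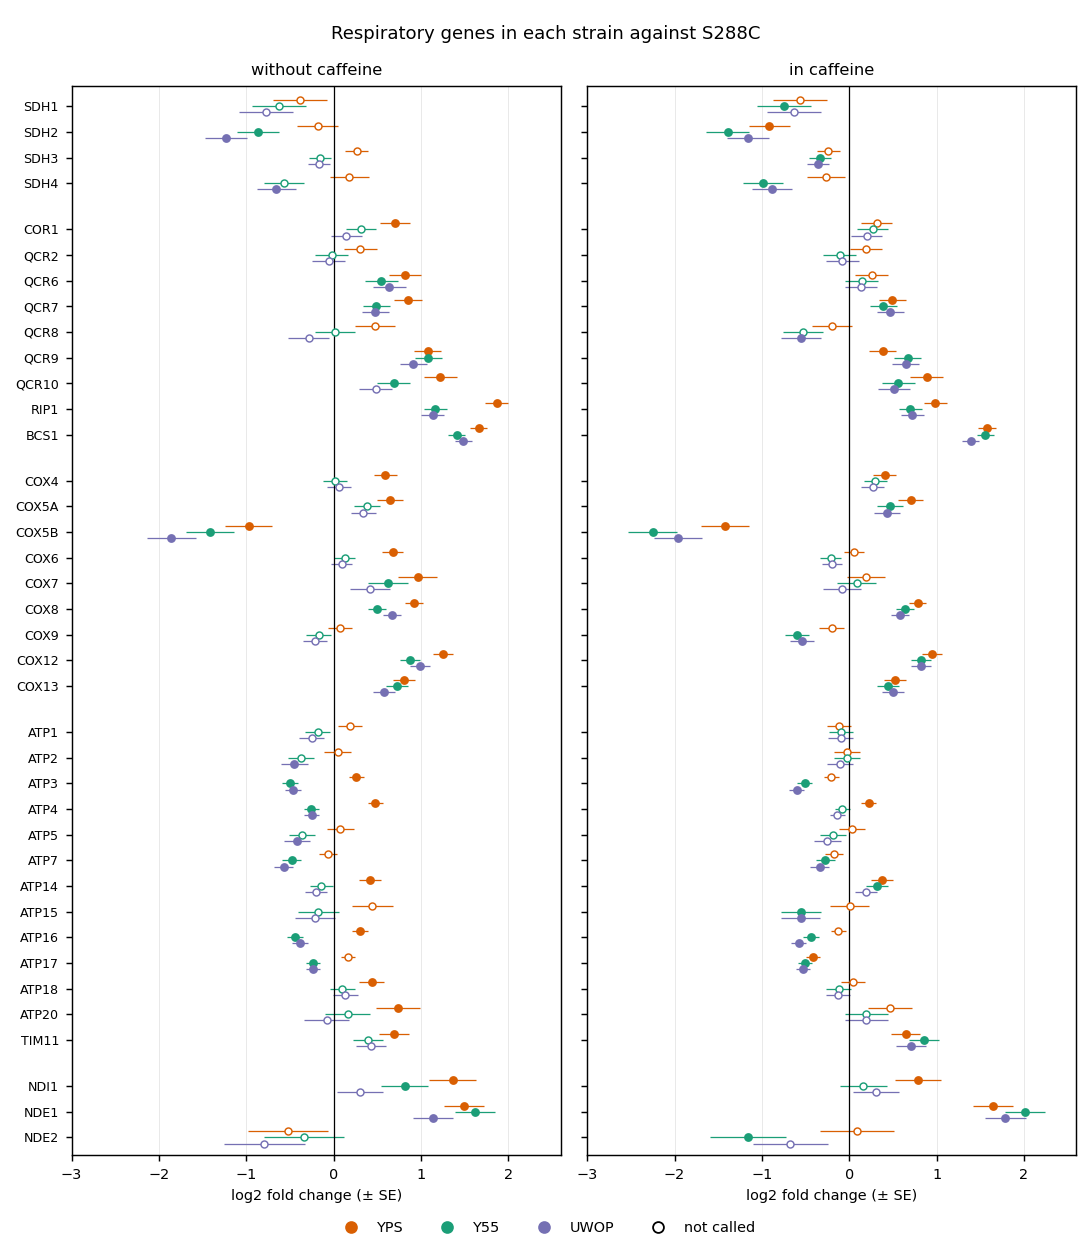
Log2 fold change of each of the 38 genes against S288C, without caffeine on the left and in caffeine on the right, with bars of 1 SE from edgeR. Filled points passed an adjusted p of 0.05, and open points did not. RIP1, BCS1, COX12 and NDE1 lie to the right in all 3 strains and COX5B lies to the left.

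Complex II carried no gene that was called higher in any strain. SDH2, the iron-sulfur subunit, was at 61.9, 68.5 and 72.8 CPM in S288C, 43.9, 53.0 and 82.0 in YPS, 32.1, 54.7 and 24.1 in Y55 and 29.8, 25.7 and 30.9 in UWOP. The Y55 and UWOP libraries all lay below those of S288C, while YPS 42 lay above them. Its log2 fold change was -0.86 ± 0.24 (SE) in Y55 (adjusted p = 0.008), -1.23 ± 0.24 in UWOP (adjusted p = 0.00038) and -0.18 ± 0.24 in YPS (adjusted p = 0.57). SDH1, the flavoprotein that oxidizes succinate, was at 106, 126 and 120.5 CPM in S288C, 59.7, 60.2 and 149.8 in YPS, 72.3, 117 and 37.4 in Y55 and 61.4, 70.6 and 73.9 in UWOP. YPS 42 and Y55 35 were the only libraries of the other strains within or above the S288C range, and no difference was called. SDH3, which with SDH4 anchors the enzyme in the membrane, was at 78.5, 98.8 and 87.4 CPM in S288C, 104.97, 95.2 and 117 in YPS, 74.9, 94.5 and 67.2 in Y55 and 76.6, 80.7 and 77.8 in UWOP, with overlapping groups. SDH4 was called lower in UWOP (log2 -0.66). Without YPS 42 and Y55 35, SDH1 and SDH2 were called lower in YPS (log2 -0.99, adjusted p = 0.00032, and -0.51, adjusted p = 0.021) and all 4 complex II genes were called lower in Y55. Of the Y55 libraries then left, Y55 43 was the lower for all 4 genes, so the size of these differences leans on it. Both libraries lay below every S288C library for each of the 4 genes.

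Complex III had no gene called lower in any strain. The median log2 fold change over its 8 genes was 0.83 for YPS, 0.51 for Y55 and 0.48 for UWOP. Of the 8 genes, 6 were called higher in YPS, 5 in Y55 and 4 in UWOP, against 21%, 20% and 20.8% of all genes tested. RIP1 (YEL024W), the Rieske iron-sulfur subunit that takes electrons from ubiquinol, was at 43.8, 56.9 and 54.0 CPM in S288C, 190.3, 176 and 197 in YPS, 115, 142 and 88.7 in Y55 and 110.2, 115 and 114 in UWOP. Every library of the other strains was above every S288C library, and YPS was also above Y55 and UWOP. The fold over S288C was 3.64 in YPS, 2.24 in Y55 and 2.19 in UWOP, or log2 1.86 ± 0.13, 1.16 ± 0.13 and 1.13 ± 0.13 (adjusted p at most 7.6e-07). BCS1, the AAA chaperone that moves Rip1 across the inner membrane during assembly of complex III, was higher in all 3 strains as well. BCS1 (YDR375C) was at 56.0, 60.8 and 58.5 CPM in S288C, 178, 178 and 198 in YPS, 158, 167 and 139.8 in Y55 and 167, 167 and 156 in UWOP, with log2 fold changes of 1.66 ± 0.10, 1.41 ± 0.10 and 1.49 ± 0.10 (adjusted p at most 4.7e-10). None of the 3 groups overlapped with S288C, the YPS libraries were the highest, and Y55 and UWOP overlapped with each other.

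The small subunits of complex III differed among themselves. QCR10, a small membrane subunit, was at 17.4, 14.8 and 18.8 CPM in S288C, 38.8, 36.1 and 43.9 in YPS, 24.5, 33.1 and 24.4 in Y55 and 23.2, 26.5 and 21.5 in UWOP, all above S288C, and was called in YPS (1.22 ± 0.19) and Y55 (0.69 ± 0.19) but not in UWOP (0.48 ± 0.19, adjusted p = 0.052). The call in Y55 was lost without Y55 35 or without S288C 33. QCR8, another small subunit, was at 32.8, 26.8 and 30.6 CPM in S288C, 33.4, 40.3 and 51.8 in YPS, 31.9, 36.5 and 22.2 in Y55 and 21.9, 27.9 and 24.1 in UWOP, and was called in none. QCR9 was called higher with log2 fold changes of 1.08, 1.08 and 0.91, QCR7 with 0.85, 0.49 and 0.47, and QCR6, the acidic subunit near cytochrome c1, with 0.82, 0.54 and 0.63. In Y55 and UWOP, leaving out single libraries could end the calls of QCR6 and QCR7, with 6 of 13 and 6 of 13 alternatives for Y55 and 1 of 12 and 5 of 12 for UWOP. Of the core proteins, COR1 was called higher in YPS (0.70, or 0.42 without YPS 42 and Y55 35, against 0.31 and 0.15) and QCR2 in no strain. The short transcripts QCR8 and QCR10 had at least 184 and 202 counts in a library.

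In complex IV, the isoforms of subunit 5 were called in opposite directions in YPS, while COX5B was called lower and COX5A was not called in Y55 and UWOP. Yeast carries COX5A, the isoform used in air, and COX5B, the isoform used when oxygen is low, which is repressed by Rox1. COX5B (YIL111W) was at 58.4, 60.5 and 63.5 CPM in S288C, 24.7, 26.4 and 41.7 in YPS, 22.6, 34.1 and 10.4 in Y55 and 15.6, 15.6 and 19.2 in UWOP. No library of the other strains reached the lowest S288C library, and the log2 fold change was -0.97 ± 0.27 in YPS (adjusted p = 0.0074), -1.42 ± 0.28 in Y55 (adjusted p = 0.00042) and -1.86 ± 0.28 in UWOP (adjusted p = 2.3e-05). COX5A was at 75.9, 73.9 and 82.5 CPM in S288C, 113, 121 and 129.9 in YPS, 101, 122 and 78.7 in Y55 and 101, 99.3 and 93.3 in UWOP. It was called higher in YPS (0.65 ± 0.15, adjusted p = 0.0015), while Y55 (0.38 ± 0.15, adjusted p = 0.051) and UWOP (0.34 ± 0.15, adjusted p = 0.077) did not pass. Per kilobase of effective length, the level of COX5A over that of COX5B was 1.31 ± 0.0459 in S288C (SD, n = 3), 4.20 ± 0.865 in YPS, 5.36 ± 2.16 in Y55 and 6.08 ± 0.928 in UWOP. Single S288C libraries ranged from 1.26 to 1.34 and the lowest of the other strains, YPS 42, was at 3.2.

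COX12, a subunit on the intermembrane space side, had the highest log2 fold change of complex IV in each strain, at 24.7, 28.1 and 28.7 CPM in S288C, 67.2, 63.2 and 62.7 in YPS, 52.3, 53.1 and 43.3 in Y55 and 53.2, 57.2 and 51.0 in UWOP. All libraries of the other strains were above S288C (log2 1.25 ± 0.11, 0.87 ± 0.11 and 0.99 ± 0.11, adjusted p at most 3.4e-06). COX8 (0.92, 0.49 and 0.67) and COX13 (0.81, 0.73 and 0.58), also nuclear accessory subunits, were called higher in all 3 strains. COX4 (0.59) and COX6 (0.68) were called in YPS only, with values between 0.013 and 0.12 in Y55 and UWOP. COX7 was called in YPS (0.96) and, less firmly, in Y55 (0.62, lost in 8 of 13 alternatives), and COX9 in no strain. Of the 9 genes, 7 were called higher in YPS, 4 in Y55 and 3 in UWOP, while COX5B was called lower in each. The shares of all genes tested that were called higher were 21%, 20% and 20.8%.

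ATP synthase genes were called in different directions by strain. Of the 13 genes, 7 were called higher and 0 lower in YPS, 0 higher and 5 lower in Y55, and 0 higher and 7 lower in UWOP. Of all genes tested, 21% and 17.1%, 20% and 13.9%, and 20.8% and 15.8% were called higher and lower in the same order. The median log2 fold change was 0.30 for YPS, -0.23 for Y55 and -0.25 for UWOP. ATP3 (the gamma subunit of the rotor stalk), ATP4 (subunit b of the stator) and ATP16 (the delta subunit of the stalk) were called higher in YPS (0.26, 0.48 and 0.30) and lower in Y55 (-0.50, -0.26 and -0.44) and UWOP (-0.47, -0.25 and -0.39). The call of ATP3 in YPS was lost in 8 of 13 alternatives and that of ATP16 in 2 of 13. The calls of ATP4 were lost in 3 of 13 for Y55 and 2 of 12 for UWOP, and those of ATP17 in 4 of 13 and 3 of 12. ATP7, subunit d of the stator, was at 81.5, 89.8 and 89.9 CPM in S288C, 73.3, 76.9 and 99.3 in YPS, 58.4, 73.0 and 55.6 in Y55 and 60.3, 58.6 and 57.0 in UWOP. Y55 and UWOP lay below S288C in every library (-0.48 ± 0.11, adjusted p = 0.0015, and -0.57 ± 0.11, adjusted p = 0.00028), while YPS overlapped with it (-0.066 ± 0.11). ATP17 was called lower in Y55 and UWOP (-0.23 and -0.24), and ATP2, the catalytic beta subunit, and ATP5, the oligomycin sensitivity protein, were called lower in UWOP (-0.45 and -0.42).

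The subunits of ATP synthase that join it into dimers were not called lower. TIM11, subunit e, was at 48.2, 37.8 and 38.1 CPM in S288C, 61.6, 75.8 and 63.3 in YPS, 68.0, 54.6 and 39.1 in Y55 and 51.2, 62.5 and 53.0 in UWOP. It was called higher in YPS (0.69 ± 0.17, adjusted p = 0.0027), while Y55 overlapped with S288C (0.39 ± 0.17) and UWOP did not pass (0.43 ± 0.17, adjusted p = 0.055). ATP20, subunit g, was at 11.2, 14.2 and 13.1 CPM in S288C, 22.1, 20.3 and 21.6 in YPS, 12.8, 12.8 and 17.9 in Y55 and 11.3, 12.3 and 12.8 in UWOP. All YPS libraries were above all other libraries without caffeine (0.73 ± 0.25, adjusted p = 0.027), but this call was lost without S288C 25, S288C 41 or YPS 26. ATP14 (0.41, lost in 3 of 13 alternatives) and ATP18 (0.43, lost in 4 of 13) were also called higher in YPS and not in the other strains, and ATP1 and ATP15 in no strain.

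The NADH dehydrogenases differed from each other. NDE1, the main external enzyme, was at 242, 279.8 and 269 CPM in S288C, 598, 598 and 1029.6 in YPS, 629, 1225 and 571 in Y55 and 577, 588 and 575 in UWOP. All 9 libraries of the other strains were above S288C, and YPS 42 and Y55 35 were the highest of them. The log2 fold change was 1.49 ± 0.23 in YPS (adjusted p = 2.4e-05), 1.62 ± 0.23 in Y55 (adjusted p = 9.9e-06) and 1.14 ± 0.23 in UWOP (adjusted p = 0.00044). NDI1, the matrix enzyme, was at 78.3, 82.5 and 76.7 CPM in S288C, 145, 170.4 and 297 in YPS, 105.3, 219 and 92.2 in Y55 and 93.2, 94.0 and 105.2 in UWOP. Every library of the other strains was above S288C, with calls in YPS (1.36 ± 0.27) and Y55 (0.81 ± 0.27) but not UWOP (0.30 ± 0.27). Without YPS 42 and Y55 35 the value in Y55 was 0.29 and was not called. NDE2, the minor external enzyme, was at 4.22, 4.68 and 5.17 CPM in S288C, 1.61, 1.44 and 6.71 in YPS, 3.63, 5.71 and 1.33 in Y55 and 2.34, 2.99 and 2.79 in UWOP, from as few as 11 counts, and no difference was called. Without YPS 42 and Y55 35 NDE2 was called lower in YPS (log2 -1.62, adjusted p = 0.00073).

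**Figure D3:**
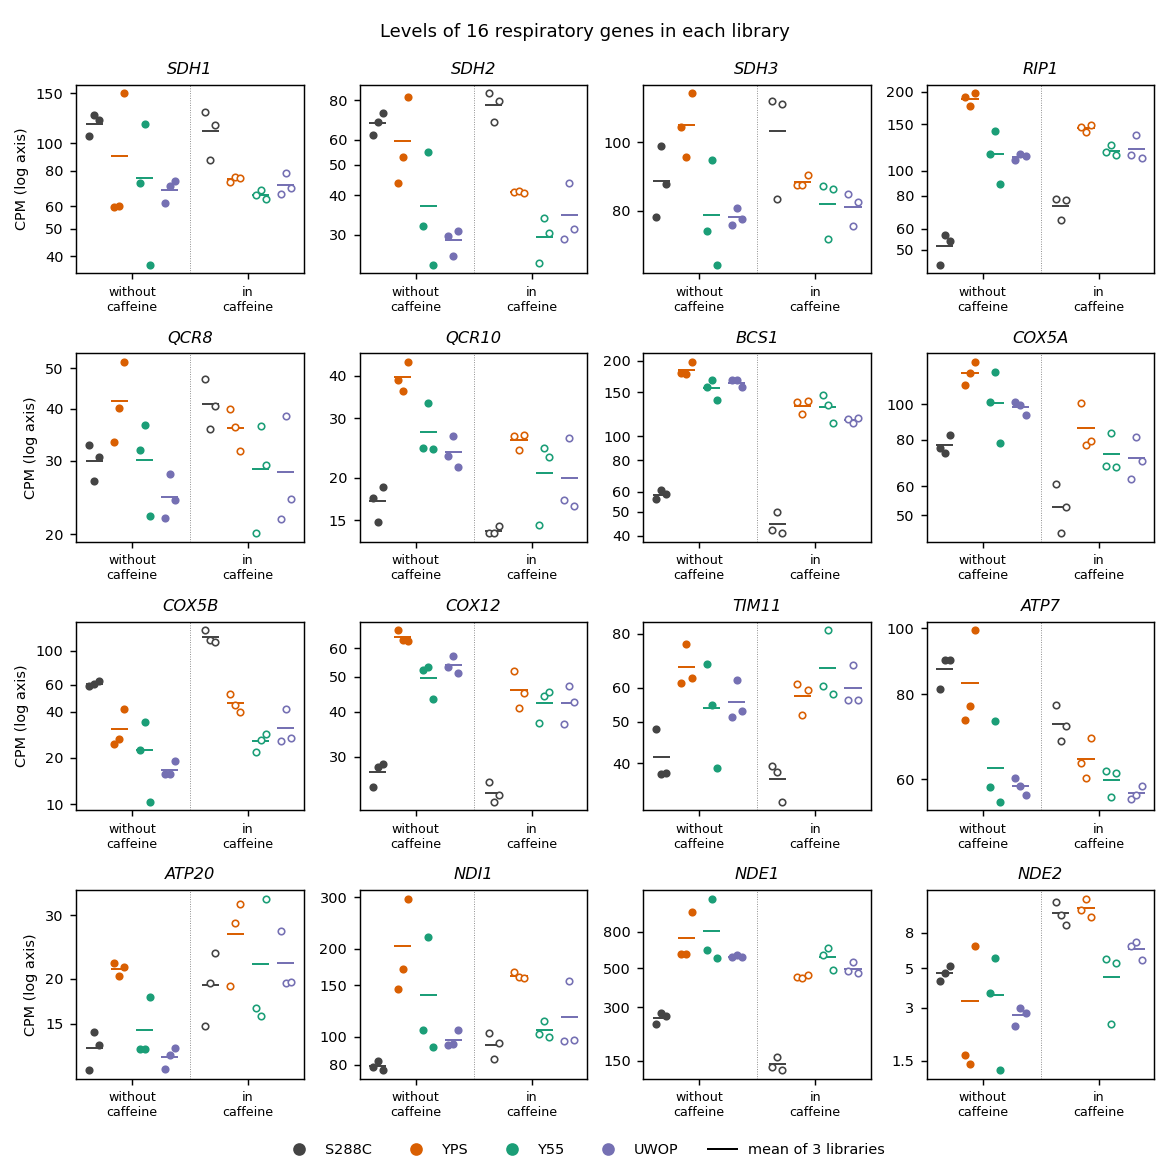
Level of 16 genes in each of the 24 libraries, in CPM on a logarithmic axis, with filled points without caffeine, open points in caffeine and a bar at the mean of 3 libraries. Within each medium RIP1, BCS1, COX12 and NDE1 of S288C lie below all other strains, COX5B of S288C lies above them, and the single high points of SDH1, NDI1 and NDE1 in YPS and Y55 without caffeine are YPS 42 and Y55 35.

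The levels of the genes relative to each other can be read only per length. Per kilobase of effective length, COX9 was the highest in S288C without caffeine (622 ± 3.6 CPM per kilobase, SD, n = 3), followed by ATP18 (569 ± 76.9) and ATP2 (567 ± 45.6), which did not differ from each other beyond their spread. RIP1 was in place 32 of 38 (93.2 ± 12.5), BCS1 in place 37 (46.3 ± 1.92) and NDE2 last (2.96 ± 0.3). Summed over its genes, complex III came to 627 ± 41.7 CPM in S288C, 1102 ± 151 in YPS, 837 ± 181 in Y55 and 803 ± 13.3 in UWOP. In the same order, the sums were 438 ± 26.1, 645 ± 34.1, 510.1 ± 79.9 and 498 ± 20.1 CPM for complex IV. For ATP synthase they were 2021 ± 152, 2289.8 ± 328, 1650.5 ± 303 and 1599 ± 27.6 CPM. ATP synthase thus took the largest share of the counts of the 38 genes in each of these groups.

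**Figure D4:**
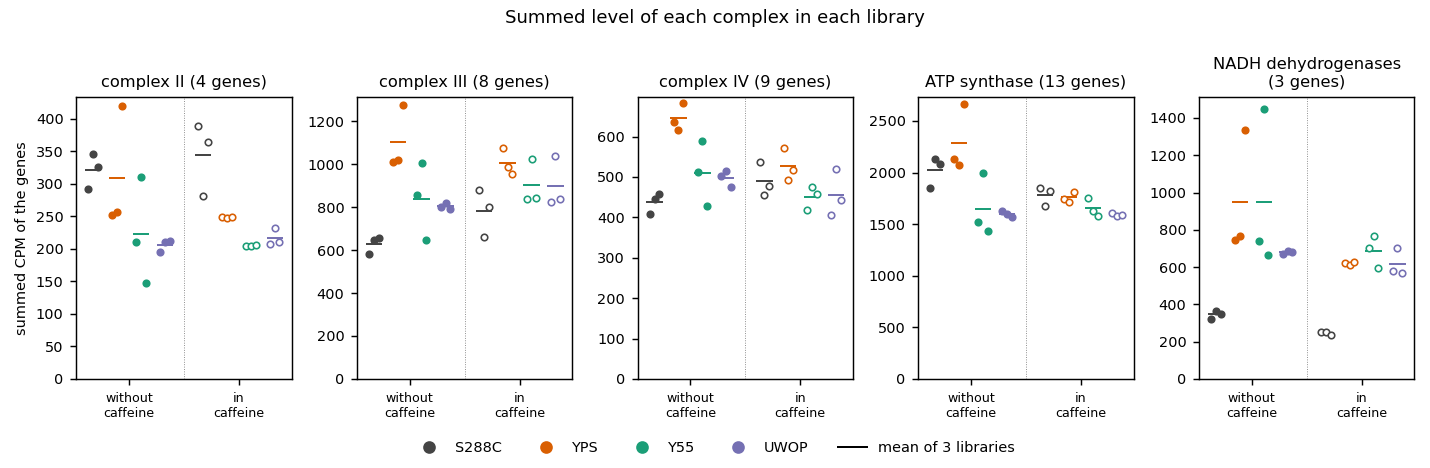
Summed CPM of the genes of each complex in each library, with filled points without caffeine, open points in caffeine and a bar at the mean of 3 libraries. The highest points of YPS and of Y55 without caffeine, for complex II and the NADH dehydrogenases, are YPS 42 and Y55 35, and S288C is the lowest of the 4 strains for complex III and the NADH dehydrogenases in both media by group mean.

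In caffeine, RIP1, BCS1, COX12 and NDE1 were again called higher than in S288C in all 3 strains. In YPS 15 genes were called higher and 3 lower, against 24.5% and 22% of all genes tested. In Y55 12 were called higher and 12 lower (30.4% and 28.7% of all genes), and in UWOP 11 higher and 11 lower (28.1% and 26.4%). The median over the 38 genes was 0.19 for YPS, -0.055 for Y55 and -0.092 for UWOP, where the median of all genes was -0.013, 0.0036 and -0.013. QCR7, QCR9, QCR10, RIP1, BCS1, COX5A, COX8, COX12, COX13, TIM11 and NDE1 were called higher in all 3 strains, and SDH2, COX5B and ATP17 were called lower in all 3. Complex II had no gene called higher, with 1 of 4 lower in YPS, 4 in Y55 and 3 in UWOP.

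For SDH2 in caffeine, the levels were 84.1, 68.3 and 79.5 CPM in S288C, 41.1, 41.4 and 40.7 in YPS, 24.4, 33.9 and 30.4 in Y55 and 29.1, 43.7 and 31.3 in UWOP. All libraries of the other strains were below S288C (-0.91 ± 0.24, -1.39 ± 0.24 and -1.16 ± 0.24). SDH1 was at 129, 87.2 and 116 CPM in S288C, 73.4, 76.0 and 75.5 in YPS, 66.0, 68.5 and 63.5 in Y55 and 66.3, 78.5 and 69.4 in UWOP, again without overlap, but only Y55 was called (adjusted p = 0.045, lost in 6 of 12 alternatives). SDH3 was at 114, 83.2 and 113 CPM in S288C, 86.9, 86.9 and 89.9 in YPS, 86.7, 73.2 and 85.9 in Y55 and 84.6, 76.3 and 82.3 in UWOP, where S288C 37 lay within the range of the other groups. HXK1 was at 628 to 775 CPM in the YPS libraries in caffeine and at most 435 CPM in the others.

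RIP1 in caffeine was at 78.1, 64.9 and 77.1 CPM in S288C, 147, 140.4 and 149 in YPS, 117, 125 and 114 in Y55 and 115, 137 and 112 in UWOP. The difference from S288C was called in each strain but had a smaller value than without caffeine (0.99 ± 0.13, 0.70 ± 0.13 and 0.72 ± 0.13). BCS1 was at 42.4, 49.8 and 41.0 CPM in S288C, 137, 123 and 138 in YPS, 147, 133 and 112 in Y55 and 117, 112 and 119 in UWOP (1.58 ± 0.10, 1.56 ± 0.10 and 1.39 ± 0.10). Both genes were above S288C in every library. QCR10 was at 13.7, 13.7 and 14.4 CPM in S288C, 26.6, 24.1 and 26.7 in YPS, 14.5, 24.5 and 23.1 in Y55 and 17.1, 26.2 and 16.5 in UWOP, with the lowest Y55 library just above S288C. QCR8 was at 47.2, 35.8 and 40.5 CPM in S288C, 40.1, 36.2 and 31.8 in YPS, 20.1, 36.5 and 29.4 in Y55 and 21.8, 38.4 and 24.3 in UWOP, and was called lower in UWOP only (-0.55 ± 0.23, adjusted p = 0.047), a call lost in 6 of 12 alternatives.

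The COX5 isoforms also differed in caffeine. COX5B was at 135, 117 and 113 CPM in S288C, 52.5, 44.1 and 40.0 in YPS, 21.98, 26.3 and 28.6 in Y55 and 25.8, 41.4 and 27.1 in UWOP. Every S288C library was above every other library (-1.42 ± 0.27, -2.25 ± 0.28 and -1.96 ± 0.28). COX5A was at 61.0, 44.8 and 52.6 CPM in S288C, 101, 77.5 and 79.6 in YPS, 68.0, 83.7 and 67.5 in Y55 and 62.7, 81.3 and 70.1 in UWOP, with S288C the lowest. The ratio of COX5A to COX5B per kilobase was 0.445 ± 0.0445 in S288C (SD, n = 3), 1.94 ± 0.124 in YPS, 2.96 ± 0.466 in Y55 and 2.39 ± 0.334 in UWOP, so that COX5B exceeded COX5A in S288C alone. COX12 was at 25.5, 22.5 and 23.4 CPM in S288C, 51.8, 40.8 and 45.0 in YPS, 37.3, 44.1 and 45.3 in Y55 and 37.0, 47.2 and 42.4 in UWOP, all above S288C. COX9 was called lower in Y55 and UWOP (-0.60 and -0.54).

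Of the ATP synthase genes in caffeine, TIM11 was at 39.4, 38.3 and 32.6 CPM in S288C, 61.3, 51.7 and 59.4 in YPS, 60.6, 81.4 and 58.1 in Y55 and 56.0, 67.7 and 56.2 in UWOP. No library of the other strains overlapped with S288C (0.65 ± 0.17, 0.86 ± 0.17 and 0.70 ± 0.17). ATP7 was at 77.1, 68.3 and 71.8 CPM in S288C, 63.3, 60.3 and 69.0 in YPS, 61.7, 56.4 and 61.3 in Y55 and 56.2, 56.8 and 58.7 in UWOP, and was called lower in Y55 and UWOP (-0.27 ± 0.11 and -0.34 ± 0.11). ATP20 was at 14.8, 19.5 and 23.6 CPM in S288C, 19.2, 28.6 and 32.2 in YPS, 16.7, 15.8 and 33.3 in Y55 and 27.2, 19.5 and 19.6 in UWOP, with wide and overlapping groups. ATP3, ATP15 and ATP16 were called lower in Y55 and UWOP (from -0.60 to -0.44), and ATP17, a membrane subunit, in all 3 strains (-0.41, -0.50 and -0.52). ATP4 was called higher in YPS (0.22) and ATP14 in YPS and Y55 (0.37 and 0.32).

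NDE1 (YMR145C) had the highest positive log2 fold change of the 38 genes in each strain in caffeine. NDE1 was at 139, 158 and 133 CPM in S288C, 445, 440.1 and 458 in YPS, 594, 650.2 and 491 in Y55 and 479, 542 and 467 in UWOP, or 3.12-fold, 4.03-fold and 3.45-fold higher than S288C (log2 1.64 ± 0.23, 2.01 ± 0.23 and 1.79 ± 0.23, adjusted p at most 6.8e-06). NDI1 was at 103, 83.6 and 94.98 CPM in S288C, 166, 160.0 and 158 in YPS, 102, 113 and 99.9 in Y55 and 96.1, 156 and 97.5 in UWOP, and was called in YPS only (0.78 ± 0.27). NDE2 was at 11.99, 10.01 and 8.88 CPM in S288C, 10.7, 12.4 and 9.78 in YPS, 5.68, 2.41 and 5.36 in Y55 and 6.70, 7.09 and 5.59 in UWOP. It was called lower in Y55 (-1.16 ± 0.44, adjusted p = 0.029), with YPS close to S288C (0.093 ± 0.42).

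Within a strain, COX5A and COX8 were the genes called lower in caffeine in all 4 strains, and none was called higher in all 4. The share of all genes called lower in all 4 was not computed, and it can be at most the 5.77% of Y55. In S288C 10 of the 38 genes rose and 8 fell, against 27.5% and 25% of all genes tested. In YPS 1 rose and 16 fell (20.5% and 20% of all genes). In Y55 none rose and 2 fell (8.64% and 5.77%), and in UWOP 3 rose and 5 fell (14.7% and 13%). In Y55, 7 of the 38 genes had an unadjusted p under 0.05 in edgeR, and a fit of the Y55 groups alone called 0 in either direction. Both Y55 calls were lost under some alternative. With YPS 42 and Y55 35 left out, 3 genes rose and 15 fell in YPS, and 2 rose and 1 fell in Y55. QCR2 then rose in both (log2 0.58 and 0.55), COX5B rose in YPS and ATP18 rose in Y55 (0.42), while ATP2 was no longer called in YPS nor COX5A in Y55. The median over the 38 genes was 0.16 for S288C, -0.28 for YPS, -0.0078 for Y55 and 0.063 for UWOP, where the median of all genes was 0.026, -0.0044, -0.0067 and 0.0035. Rises and falls in caffeine depend on the TMM scaling. Its factors went from 0.915 to 0.961 without and 1.17 to 1.26 in caffeine in S288C, and 0.888 to 0.944 and 1.07 to 1.11 in YPS. Before scaling, the 38 genes took 0.337% to 0.366% of S288C counts without and 0.396% to 0.495% in caffeine. Their summed CPM in S288C after scaling was 3812 ± 266 and 3689 ± 292 (SD, n = 3). In YPS the unscaled share was 0.44% in YPS 26 and YPS 34 and 0.62% in YPS 42, and 0.464% to 0.47% in caffeine. The unscaled share in caffeine was thus above that of YPS 26 and YPS 34 and below that of YPS 42 alone. After scaling, the sum in YPS was 5479 ± 949 CPM without and 4292 ± 109 CPM in caffeine. The direction of the change in YPS therefore rests on the scaling and on YPS 42. RLE size factors gave the same numbers of calls in S288C and YPS. Like TMM, they take most genes as unchanged, so this does not show whether the scaling is right.

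COX8 and COX5A fell in all 4 strains. COX8, a small hydrophobic subunit of complex IV, had log2 fold changes of -0.62 ± 0.10 in S288C, -0.75 ± 0.10 in YPS, -0.47 ± 0.10 in Y55 and -0.71 ± 0.10 in UWOP (adjusted p at most 0.0036). COX5A changed by -0.55 ± 0.15, -0.50 ± 0.15, -0.47 ± 0.15 and -0.46 ± 0.15 (adjusted p at most 0.039), and its libraries in caffeine were all below those without caffeine except in Y55. Such a lack of overlap held for 63.2% of all genes tested in S288C, 49.9% in YPS, 22.7% in Y55 and 54.5% in UWOP, in either direction. The COX5A call was lost in 1 of 13 alternatives for YPS, 7 of 13 for Y55 and 4 of 12 for UWOP, and that of COX8 in 1 of 13 for Y55. COX5B rose in S288C (1.004 ± 0.27, adjusted p = 0.0039), where its level went from 58.4, 60.5 and 63.5 CPM to 135, 117 and 113, and in UWOP (0.90 ± 0.28, adjusted p = 0.021). The values in YPS (0.56 ± 0.27) and Y55 (0.17 ± 0.28) did not pass. With YPS 42 and Y55 35 left out they were 0.85 (adjusted p = 0.0056) and 0.57 (adjusted p = 0.1). The ratio of COX5A to COX5B was accordingly lower in caffeine in every strain by group mean.

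**Figure D5:**
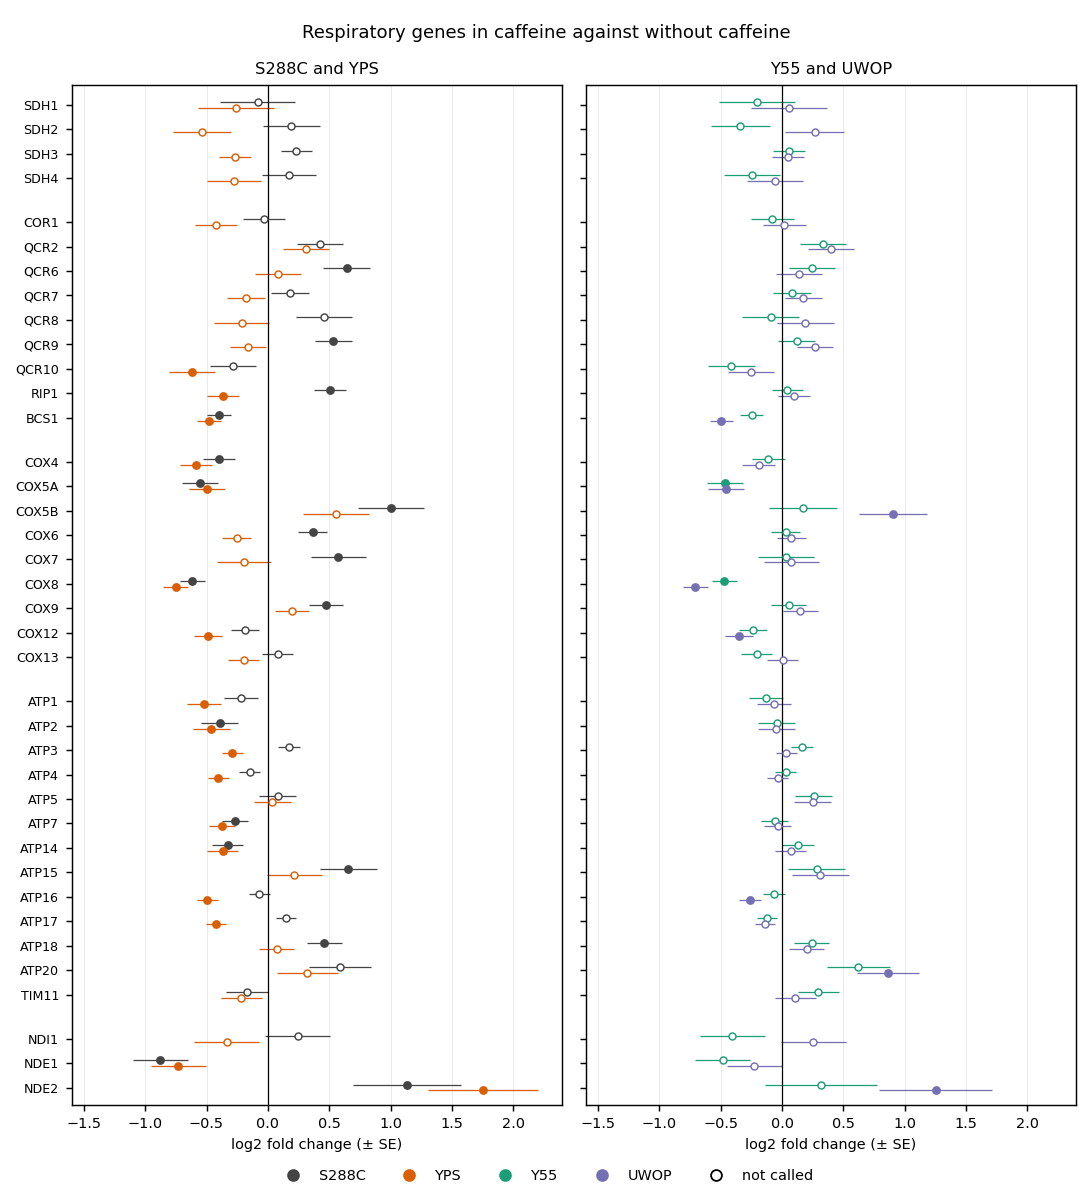
Log2 fold change of each of the 38 genes in caffeine against without caffeine, for S288C and YPS on the left and for Y55 and UWOP on the right, with bars of 1 SE from edgeR. Filled points passed an adjusted p of 0.05, and open points did not. COX5A and COX8 lie to the left in all 4 strains, and most ATP synthase genes lie to the left in YPS.

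Among the NADH dehydrogenases, NDE2 rose in S288C (1.13 ± 0.44, adjusted p = 0.036), YPS (1.75 ± 0.45, adjusted p = 0.0043) and UWOP (1.25 ± 0.46, adjusted p = 0.048), while the value in Y55 (0.32 ± 0.46) did not pass. The rise in YPS was 2.84 without YPS 42 and Y55 35. NDE1 fell in S288C (-0.88 ± 0.23, adjusted p = 0.0028) and YPS (-0.73 ± 0.22, adjusted p = 0.014), with -0.48 ± 0.22 in Y55 and -0.23 ± 0.22 in UWOP. Without YPS 42 the value in YPS was -0.42 (adjusted p = 0.12), and without both YPS 42 and Y55 35 it was -0.40 (adjusted p = 0.0058). NDI1 was called in no strain, its values lying between -0.40 and 0.25. Per kilobase, NDE1 stood at 57.2 ± 4.00 times the level of NDE2 in S288C without caffeine and at 14.4 ± 2.25 times in caffeine (SD, n = 3), with no overlap.

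Of the 8 complex III genes, 3 rose in S288C and 2 fell in YPS, where 27.5% and 20% of all genes tested did so. RIP1 rose in S288C (0.51 ± 0.13, adjusted p = 0.0028) and fell in YPS (-0.37 ± 0.13, adjusted p = 0.028). The fall in YPS was -0.33 without YPS 42 (adjusted p = 0.067) and -0.32 without both YPS 42 and Y55 35 (adjusted p = 0.036). QCR6 (0.64) and QCR9 (0.54) rose in S288C, and QCR10 fell in YPS (-0.62). BCS1 fell in S288C (-0.40), YPS (-0.48) and UWOP (-0.49), with -0.25 in Y55 (adjusted p = 0.095), and so did not follow RIP1 in S288C. In complex IV, COX6 (0.37), COX7 (0.57) and COX9 (0.48) rose in S288C and were not called in the other strains, where the difference in response was called for COX6 in YPS only. COX4 fell in S288C and YPS (-0.40 and -0.59), and COX12 fell in YPS and UWOP (-0.49 and -0.35). No complex II gene was called in any strain, with all values between -0.54 and 0.27.

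In YPS, 8 of the 13 ATP synthase genes were called lower in caffeine and none higher, against 20% and 20.5% of all genes tested. The difference from the response of S288C was called for 3 of the 13, as given below. With both YPS 42 and Y55 35 left out, the values of ATP1, ATP2 and ATP7 were -0.33, -0.25 and -0.21. The 8 genes were ATP1, ATP2, ATP3, ATP4, ATP7, ATP14, ATP16 and ATP17, with values from -0.52 (ATP1) to -0.29 (ATP3), and the calls of ATP2, ATP3, ATP7 and ATP14 were lost under at least 1 alternative. In S288C, ATP2, ATP7 and ATP14 fell (from -0.39 to -0.27) while ATP15, the epsilon subunit, and ATP18 rose (0.66 and 0.46). In UWOP, ATP16 fell (-0.26) and ATP20 rose (0.86 ± 0.25, adjusted p = 0.016), and in Y55 none was called. Within S288C, 10 of the 18 calls were lost under at least 1 alternative, all 10 when a single library was left out. In YPS 7 of the 17 calls and in UWOP 6 of the 8 were lost under at least 1 alternative.

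The caffeine response of YPS differed from that of S288C for 6 genes, all with a lower response in YPS. QCR9 (-0.70 ± 0.21, adjusted p = 0.036), RIP1 (-0.88 ± 0.18, adjusted p = 0.0036), COX6 (-0.62 ± 0.17), ATP3 (-0.46 ± 0.12), ATP16 (-0.42 ± 0.12) and ATP17 (-0.57 ± 0.11) had a lower interaction term, and 0 genes had a higher one, against 5.94% and 6.86% of all genes tested. Over all members, the interaction was negative for 35 of the 38 genes, with a median of -0.32 (all genes -0.019). This sign count rests in part on YPS 42 and Y55 35. Without them the values of SDH1 (0.39), QCR2 (0.13), ATP2 (0.12), ATP5 (0.097) and ATP7 (0.024) were positive. RIP1 and ATP17 kept the call in each of 19 alternatives. When YPS 42 and Y55 35 were left out, 6 genes were called lower and 2 higher, NDE1 (0.44, adjusted p = 0.045) and NDE2 (1.68, adjusted p = 0.009). For Y55 and UWOP 0 interactions were called in edgeR (15.2% and 13.9% of all genes were called higher and lower in Y55, and 11% and 11.2% in UWOP), with medians of -0.11 and -0.048. At an unadjusted p under 0.05 the numbers were 5 and 3 of the 38 genes, and DESeq2 called 1 and 0. The values nearest to a call were ATP14 (0.46 ± 0.18, adjusted p = 0.065) and RIP1 (-0.46 ± 0.18, adjusted p = 0.065) in Y55, and ATP17 in UWOP (-0.29 ± 0.11, adjusted p = 0.075). Without YPS 42 and Y55 35, 4 genes had a higher response in Y55 than in S288C (ATP2, ATP7, ATP14 and NDE1) and ATP17 had a lower one.

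YPS was also compared with the mean of Y55 and UWOP, since differences from S288C do not test whether these strains differ. Without caffeine all 38 genes had a positive log2 fold change, 25 of them were called higher in YPS and 0 lower, against 14.3% and 15.2% of all genes, with a median of 0.45 (all genes 0). The called genes included 11 of 13 ATP synthase genes, with ATP3 (0.74 ± 0.074), ATP4 (0.73 ± 0.071) and ATP16 (0.71 ± 0.075) highest. They also included SDH2 (0.86 ± 0.20), SDH3 (0.43 ± 0.11) and SDH4 (0.79 ± 0.19) of complex II, and RIP1 (0.72 ± 0.11). BCS1 (0.21 ± 0.083, adjusted p = 0.062) and NDE1 (0.11 ± 0.19) were not called. Without YPS 42 alone 16 genes were called higher and 1 lower (NDE2), and without both YPS 42 and Y55 35 the count was 24 higher and 0 lower. The values of SDH1 (-0.036) and NDE2 (-0.79) were negative without both libraries. In caffeine 8 genes were called higher and 0 lower (16.8% and 15.8% of all genes), SDH4, COX5B, COX9, ATP3, ATP4, ATP15, ATP16 and NDE2, the last with the largest value (1.01 ± 0.36). The difference in caffeine response was called for ATP3 (-0.39 ± 0.11, adjusted p = 0.029) and ATP4 (-0.40 ± 0.10, adjusted p = 0.021), with 0 higher (5.33% of all genes higher and 2.31% lower). Without YPS 42 and Y55 35, NDE2 was called higher (1.83) and RIP1, ATP14, ATP16 and ATP17 were also called lower (from -0.52 to -0.32).

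The genes that work around the complexes were followed in the same libraries. CYC1, the main cytochrome c, was at 19.4, 20.5 and 22.2 CPM in S288C, 441, 413 and 398 in YPS, 628, 490.1 and 449 in Y55 and 608, 599 and 527 in UWOP without caffeine, a far larger difference than that of any of the 38 genes (log2 4.34 ± 0.19, 4.66 ± 0.19 and 4.81 ± 0.19). Its hypoxic isoform CYC7 was higher too (3.25 ± 0.67, 4.90 ± 0.71 and 3.34 ± 0.68), at 4.85, 5.37 and 3.77 CPM in S288C and from 24.4 to 298 CPM in the others. CYT1, cytochrome c1 of complex III, was higher as well (1.66 ± 0.18, 1.85 ± 0.19 and 1.82 ± 0.19). HAP4 was at 83.0, 86.0 and 68.9 CPM in S288C, 350.4, 381 and 554 in YPS, 144, 209.7 and 193 in Y55 and 148, 144 and 169 in UWOP (2.43 ± 0.32, 1.20 ± 0.31 and 0.95 ± 0.31), and in caffeine it fell in S288C (-1.27 ± 0.31), YPS (-2.41 ± 0.32) and UWOP (-1.16 ± 0.31). In caffeine HAP4 was at 190.5 CPM in Y55 39 and at 55.04 and 67.7 CPM in the other Y55 libraries, and the fall in Y55 was not called (-0.81 ± 0.31). HAP1 transcripts were lower than in S288C (-1.45 ± 0.15, -0.87 ± 0.14 and -1.23 ± 0.15), at 388, 336 and 364 CPM in S288C and from 115.8 to 249 CPM in the others. Whether HAP1, HAP4 or the state of the 2 libraries that stood apart contributes to the levels of the 38 genes was not tested.

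Most assembly factors were higher in the other strains than in S288C. Of 16 complex IV assembly genes, 13 were called higher and 1 lower in YPS, 15 and 1 in Y55, and 13 and 0 in UWOP without caffeine, with medians of 1.06, 1.07 and 0.99. Of all genes tested, 21% and 17.1% were called higher and lower in YPS, 20% and 13.9% in Y55, and 20.8% and 15.8% in UWOP. COX17, a copper chaperone, had log2 fold changes of 2.06 ± 0.20, 1.90 ± 0.20 and 1.93 ± 0.20, and COX23, a related protein, set the top of the list (2.29, 2.27 and 2.39). Of 10 genes for the assembly or translation of complexes II and III, 7 were called higher in each strain and 0 lower, with CBP6 (2.16, 1.93 and 1.74) and MZM1, which stabilizes Rip1 before its insertion (2.04, 1.94 and 1.86), among the highest. For ATP synthase, the F1 chaperones ATP11 (1.62, 1.40 and 1.35), ATP12 (1.67, 1.44 and 1.36) and FMC1 (1.78, 1.51 and 1.42) were called higher in all 3 strains, including Y55 and UWOP, where no ATP synthase subunit was called higher. INH1, an inhibitor of ATP hydrolysis by the enzyme, was called lower in Y55 and UWOP (-1.02 and -1.03), and rose in caffeine in S288C and YPS (1.17 and 0.56). SDH9, a paralog of SDH1, was called lower in all 3 strains (-1.69, -2.01 and -1.77).

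Other glucose-repressed genes did not follow a single direction. Of 9 markers, 2 were called higher and 6 lower in YPS, 2 and 3 in Y55, and 1 and 2 in UWOP without caffeine. The shares of all genes called higher and lower were 21% and 17.1%, 20% and 13.9%, and 20.8% and 15.8% in the same order. ADH2 had far higher values in all 3 strains (5.90, 4.81 and 5.06). Its counts were not whole in 21 of 24 libraries, where reads were divided between transcripts, so ADH2 is uncertain. FBP1, a gluconeogenic enzyme, and JEN1, the lactate permease, were lower (FBP1 from -0.66 to -0.52, JEN1 from -1.39 to -1.24). The subunits encoded by mitochondrial DNA (COX1, COX2, COX3, COB, ATP6, ATP8 and OLI1) had between 0 and 13 counts in any library and were not tested. Protein or complex amounts were not measured.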

How the data were processed

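Poly(A) RNA of 24 libraries was sequenced with a stranded kit. The authors trimmed reads with Trimmomatic 0.36 and quantified them with kallisto 0.44.0, with bias correction, against reference transcripts of S288C (build R64 in the submitters' processing notes). The paper describes the other strains as differing from S288C in sequence. Whether this lowered their counts for some transcripts, and so their values against S288C, was not tested. The deposited estimated counts per transcript, which need not be whole, were made by the authors with kallisto and were rounded here for testing. The deposited TPM values, which the authors obtained from the same runs, were not used. The authors' own tables of each strain against S288C (log2 fold changes and p-values from DESeq2) were not used.

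Transcripts with low counts were removed with filterByExpr at its defaults, which kept 6400 of 6713. All 24 libraries entered 1 quasi-likelihood fit in edgeR 4.0.16 (R 4.3.3, limma 3.58.1) with TMM scaling and 1 coefficient per group. Adjusted p-values are Benjamini-Hochberg values over all 6400 transcripts, and called means under 0.05. The smallest exact 2-sided p for 3 against 3 libraries is 0.1, so single values were not tested by permutation. The alternatives were DESeq2 1.42.0, RLE size factors, no filter, length offsets, only the groups compared, and each library left out. Leaving out YPS 42 and Y55 35 together, and a block for runs of library numbers, were chosen after seeing the data. The members and gene lists were chosen with earlier results of these data known. Values per library are given for COX5A, COX5B, NDI1, NDE1, NDE2 and BCS1, and within each of complexes II to IV and ATP synthase for the genes with the highest and lowest mean of the 3 log2 fold changes against S288C without caffeine and the largest absolute mean of the 4 caffeine log2 fold changes. Other genes are named where called or where they set a range, and CYC1, CYC7, CYT1, HAP1 and HAP4 are given with values. Names matched RefSeq R64 for 6026 transcripts, 6021 of them with the same length. Intervals and errors cover the spread between libraries, whose totals ranged from 8714049 to 29524968.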

Additional observations from a re-analysis of the deposited data

Results flagged for a closer look

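The caffeine response of YPS differed from that of S288C, by a test of the difference itself, for 6 of the 38 genes. The interaction on the log2 scale was -0.696 for QCR9, -0.877 for RIP1, -0.619 for COX6, -0.462 for ATP3, -0.425 for ATP16 and -0.574 for ATP17. RIP1 and ATP17 passed in all 19 alternatives, and the other 4 did not. The caffeine response of YPS also differed from the mean response of Y55 and UWOP for ATP3 (-0.39) and ATP4 (-0.40), and each of these calls was lost in at least 1 alternative.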

How the results depend on the processing

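The labels name no pairs or batches, and the main fit holds no block. Each run of consecutive numbers (25 to 32, 33 to 40 and 41 to 48) holds 1 library of every group. The correlation of deviations from the group mean had a median of 0.0266 over 84 pairs of the same run, 28 of them over 0.1. Over 168 pairs of different runs the median was -0.0194, with 38 pairs over 0.1. The Y55 and UWOP libraries with few URA3 counts (Y55 27, Y55 31, UWOP 28 and UWOP 32) are those of the run 25 to 32. With these runs as a block, 1 gene was called for caffeine in Y55, and 599 of 608 single results kept their side of the threshold. No called result changed direction under any alternative run. Fitting only the groups compared gave 31 called genes for UWOP against S288C without caffeine (14 higher and 17 lower) in place of 19, 0 for caffeine in Y55, and 2 for the caffeine response of UWOP against that of S288C. For the response of Y55 against that of S288C, DESeq2 called 1 gene, and 5 were called without YPS 42 and Y55 35. When 1 library was left out at a time, the number of called genes without caffeine ranged from 19 to 26 for YPS, 13 to 20 for Y55 and 13 to 19 for UWOP, and in caffeine from 15 to 17, 16 to 22 and 17 to 21. For the effect of caffeine it ranged from 11 to 17 in S288C, 12 to 17 in YPS, 1 to 3 in Y55 and 3 to 6 in UWOP. For the response against that of S288C it ranged from 3 to 7 for YPS, 0 to 4 for Y55 and 0 to 1 for UWOP. Over single genes and comparisons, the side of the threshold was kept in 4667 of 5016 fits that left out 1 library and in 592 of 608 with DESeq2. NDE2 had as few as 11 counts in a library, which limits its precision.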
